A study of Mus musculus with 18 samples.

Results

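Monocytes and macrophages are recognised by the receptors, complement proteins and enzymes with which they sense, engulf and kill, and 37 such genes were followed here in leukemia cells and in normal blood progenitors. The list holds M-CSF and Fc receptors, complement, oxidase and phagocytic genes, and each gene was read on the array probe set that maps to that gene alone and has the highest mean. All 37 had such a probe set, out of 22180 genes with one, and all 37 passed the filter on low values that left 16912 genes to test. The study set mouse leukemia driven by MLL-AF9 against normal LSK cells (Lin-, ckit+, sca1+), a marrow fraction rich in stem and progenitor cells, to ask what reprogramming does to each. The leukemia cells (AML) were sorted as GFP+ cells of leukemic animals, and both cell types are described as coming from 4F mice, whose Dox-inducible transgenes encode Oct4, Sox2, Klf4 and c-Myc (OSKM). The control cells thus carry the transgenes as well. Each cell type was held for 24 h in culture as a control, with Dox, or with a compound cocktail of VPA, CHIR, 616452 and TCP, agents known to inhibit histone deacetylases, GSK3, the TGF-beta receptor and LSD1. This gave 6 groups of 3 arrays. Age of the mice, promoter of the transgenes and number of leukemias behind a group are not known here.

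M-CSF, the growth factor of the monocyte lineage, acts through the receptor encoded by Csf1r and keeps monocytes and macrophages alive. Fc receptors bind antibody-coated targets and signal through small adaptor chains, C1q opens the classical complement pathway, and the phagocyte NADPH oxidase makes superoxide in the engulfed vacuole. These genes come on as myeloid progenitors mature under factors such as PU.1, C/EBP and MAF, and leukemia driven by MLL-AF9 is known for a block of that maturation.

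Values are log2 expression after RMA, so a difference of 1 is a 2-fold change. LSK compound replicate 1 correlated with the other arrays at r of 0.638 to 0.672, against 0.979 to 0.989 within groups among the other 17, and was left out; the calls that held with it included are named after the counts. Replicates are labelled as biological repeats with no word on animals or cultures, and p-values therefore describe the scatter of these arrays, part of which may be technical. Klf4, a Dox-driven factor, read 3.12 to 3.39 on AML control and 9.06 to 9.21 on AML Dox arrays, and 3.72 to 3.95 and 8.15 to 8.30 on the LSK ones. Hoxa9, a gene of MLL-driven leukemia, read 7.71 to 7.89 in AML and 5.35 to 5.73 in LSK controls, and Kit, which defines the LSK gate, read 6.16 to 6.28 and 7.66 to 7.76. Xist read 9.28 to 9.56 on LSK control, 7.32 to 7.35 on LSK compound and at most 3.01 on AML arrays. The Y-linked Eif2s3y read 5.20 to 5.47 on LSK compound and 1.50 to 2.02 on LSK control arrays. It read 1.95 to 2.13 on AML control, 2.01 to 2.29 on AML Dox and 2.34 to 2.64 on AML compound arrays. Kdm5d, also Y-linked, read 2.11 to 2.27, 2.06 to 2.19 and 2.46 to 2.67 on these AML groups. All these AML values lay below the median of their array. The source of the cells therefore cannot be told apart from treatment in LSK compound, nor from leukemia between AML and LSK. Whether the AML compound cells differed in source from the AML control cells was not tested. In bulk samples, a different share of expressing cells and a different amount of RNA per cell cannot be told apart either.

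The compound cocktail raised more of these genes than it lowered in both cell types, while Dox moved them in both directions, as it did genes over the whole array. In AML cells with compounds 26 of the 37 rose and 0 fell (limma, adjusted p under 0.05), beside 12.3% of all genes tested called higher, 18.5% called lower and 30.8% called at all. The median log2 difference was 1.13 over the 37 and -0.03 over all genes, and at an unadjusted p under 0.05 limma called Plac8 alone lower (difference -0.19, limma adjusted p = 0.0811). In LSK cells with compounds 19 rose and 5 fell, beside 13.9% and 19.3% of all genes (33.2% at all), with a median of 0.34 against -0.05. That LSK count of rises was 17 after median centring and with the 2 groups fitted alone, and 8 with all 18 arrays. With Dox, 7 rose and 15 fell in AML cells, beside 22.3% and 24.7% of all genes (47.0% at all; median -0.13 against -0.01). In LSK cells 8 rose and 10 fell with Dox, beside 8.87% and 9.43% (18.3% at all; median -0.11 against -0.04). Itgam, Ccr1, Ccr2, Fcgr1, Fcgr3, Cd68, Mpeg1 and Cybb were called in all 4 of these comparisons, and C1qa, Cd163 and Aif1 in none. The shares of all genes called in all 4 or in none were not computed. Itgam, Fcgr1, Cd68 and Mpeg1 lost some of these calls with an array left out, as given below. The Dox and compound differences of a cell type share its control arrays.

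**Figure D1:**
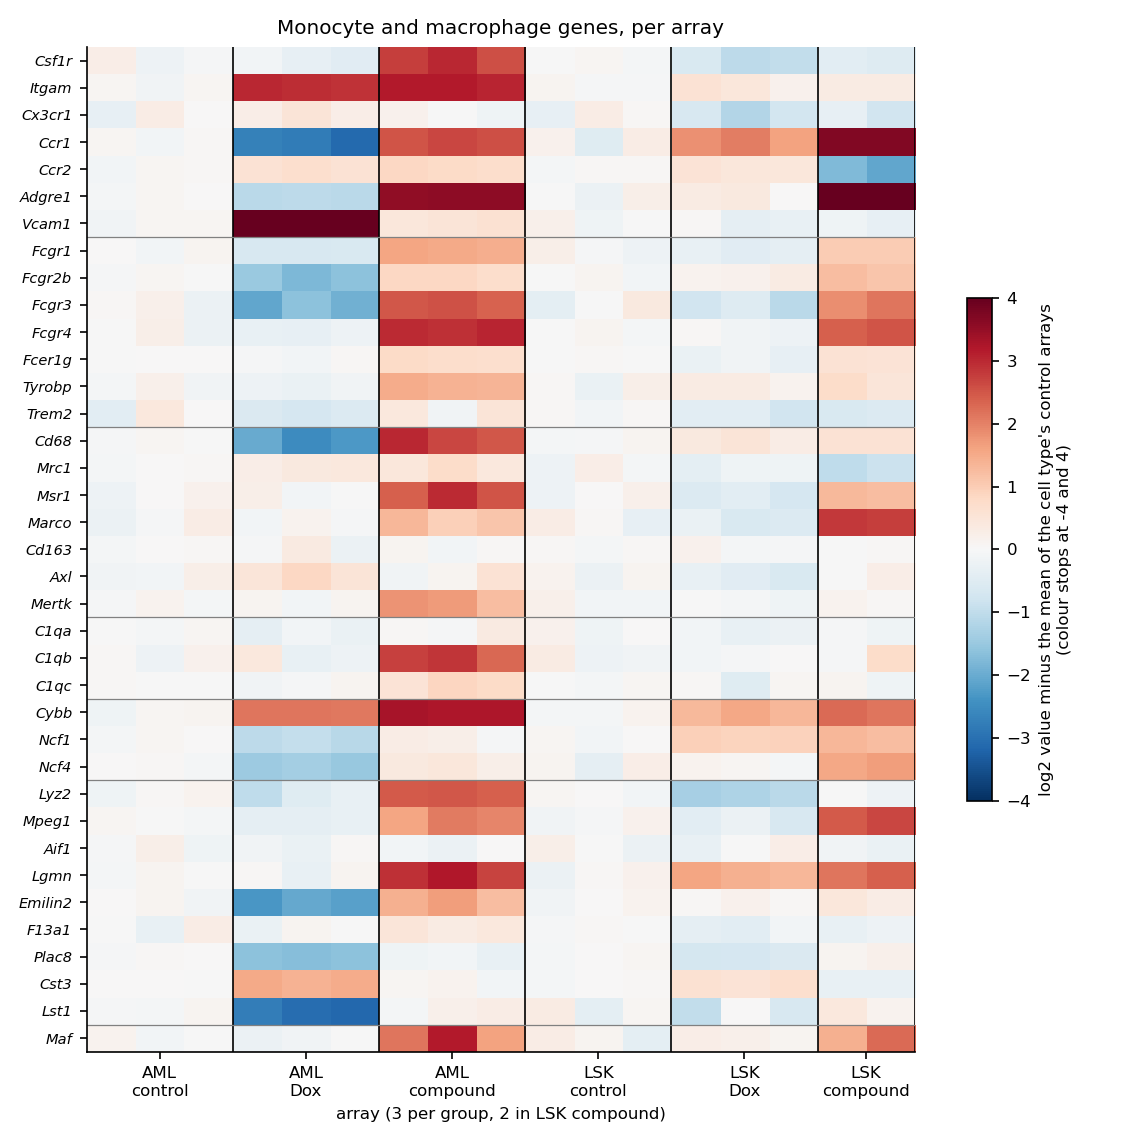
Each cell is 1 array and 1 gene, coloured by its log2 value minus the mean of the 3 control arrays of the same cell type, with the 37 genes grouped by role. In the AML compound and LSK compound columns 26 and 19 genes were called higher, and the AML Dox columns mix falls of Ccr1, Cd68, Emilin2 and Lst1 with rises of Vcam1, Itgam and Cybb.

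Each of the 17 arrays was also left out in turn, and for a call lost in at least 1 of these 17 fits the highest adjusted p is given with its array. Of the 22 AML Dox calls 18 held every time; Fcgr4 (adjusted p up to 0.266) and Trem2 (0.0795) were lost without AML control replicate 2, and Mpeg1 (0.132) and Mrc1 (0.0683) without AML control replicate 1. Of the 26 AML compound calls 25 held, and F13a1 was lost without AML control replicate 2 (0.157). Of the 18 LSK Dox calls 11 held, and Cd68 and Marco were lost in 13 and 11 of the fits, as was Fcgr4 in 12 for AML Dox. Those lost were Itgam without LSK Dox replicate 1 (0.0671), Cd68 without replicate 2 (0.151), Fcer1g (0.148) and Mpeg1 (0.141) without replicate 3, Fcgr1 (0.101) and Marco (0.214) without LSK control replicate 1, and Msr1 without LSK control replicate 3 (0.087). Of the 24 LSK compound calls 18 held, and Csf1r (0.19), Itgam (0.135) and Cst3 (0.104) were lost without LSK compound replicate 3 and Tyrobp (0.0556), Trem2 (0.162) and Emilin2 (0.187) without replicate 2.

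With LSK compound replicate 1 included, fewer calls were made over the whole array. For AML Dox 9 of the 22 calls held (Itgam, Ccr1, Ccr2, Fcgr1, Fcgr3, Ncf4, Vcam1, Emilin2 and Lst1), beside 24.6% of all genes called. For AML compound 15 of the 26 held (Csf1r, Itgam, Ccr2, Fcgr1, Fcgr3, Fcgr4, Adgre1, Msr1, Maf, Lgmn, C1qb, C1qc, Cybb, Mertk and Emilin2), beside 6.13% of all genes. For LSK Dox Csf1r alone held of 18, beside 3.47%, and for LSK compound 11 of the 24 held (Csf1r, Ccr2, Fcgr1, Fcgr3, Fcgr4, Adgre1, Mrc1, Msr1, Marco, Maf and Lgmn), beside 17.1%. All other calls of treatment against control printed for the 37 genes were lost in that fit.

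The receptor for M-CSF rose with compounds in AML cells and fell in LSK cells. Csf1r read 3.96, 3.49 and 3.66 on the AML control arrays, 3.58, 3.37 and 3.25 with Dox and 6.48, 6.72 and 6.28 with compounds. On LSK arrays it read 5.80, 5.88 and 5.74 as control, 5.19, 4.76 and 4.81 with Dox and 5.40 and 5.29 with compounds. The AML compound arrays lay above every LSK array, and the AML control arrays below them. Csf1r rose by 2.79 ± 0.14 (SE) in AML with compounds, a 6.90-fold change (limma adjusted p = 1.78e-10), and fell by 0.46 in LSK cells (limma adjusted p = 0.0352). The compound responses of AML and LSK cells differed by 3.25 (limma adjusted p = 7.07e-09). Dox lowered Csf1r in LSK cells by 0.89 (limma adjusted p = 0.000255), and the AML Dox difference of -0.30 was not called.

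Itgam, the alpha chain of an integrin complement receptor of monocytes and neutrophils, rose in AML cells with either treatment. It read 6.25, 6.04 and 6.25 on the AML control arrays, 9.19, 9.14 and 9.06 with Dox and 9.34, 9.35 and 9.24 with compounds. In LSK cells it went from 6.42, 6.27 and 6.26 to 6.91, 6.77 and 6.48 with Dox and to 6.65 and 6.64 with compounds. No treated group overlapped its controls. The AML rises were 2.95 (7.73-fold, limma adjusted p = 2.25e-13) and 3.13 (8.77-fold, limma adjusted p = 6.68e-13), and Dox and compound arrays of AML cells differed by -0.18, with a 95% interval of -0.40 to 0.04. The LSK rises were 0.41 and 0.33, smaller than the AML ones by 2.54 with Dox (limma adjusted p = 4.7e-10) and 2.80 with compounds (limma adjusted p = 9.11e-10).

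Vcam1, an adhesion molecule that binds alpha 4 integrins and is carried by some marrow and spleen macrophages, had the largest change of the 37. Its AML control arrays read 3.91, 4.11 and 4.11, the Dox arrays 9.45, 9.43 and 9.45 and the compound arrays 4.51, 4.56 and 4.65. On the LSK arrays it stayed between 3.55 and 4.12 in all 3 groups, and neither treatment was called. Dox raised Vcam1 in AML cells by 5.41 ± 0.12 (SE), which is 42.4-fold (limma adjusted p = 8.88e-16), and the compounds by 0.53 (limma adjusted p = 0.00187). The Dox responses of the cell types differed by 5.61 (limma adjusted p = 2.54e-13).

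Adgre1, which encodes the classical mouse macrophage marker F4/80, had the largest measured compound rise of the 37 in each cell type. In AML cells it read 5.80, 5.93 and 5.87 as control, 4.80, 4.82 and 4.79 with Dox and 9.41, 9.44 and 9.46 with compounds. In LSK cells it read 4.44, 4.22 and 4.70 as control, 4.79, 4.85 and 4.48 with Dox and 8.86 and 8.53 with compounds. The compound arrays of both cell types lay far above their controls, by 3.57 (11.8-fold, limma adjusted p = 9.86e-13) and 4.24 (18.9-fold, limma adjusted p = 2.42e-13). Fcgr4 in both cell types and Msr1 in AML cells rose from controls near or below the filter level. Their rises therefore cannot be ranked against that of Adgre1. Dox lowered Adgre1 in AML cells by 1.06 (limma adjusted p = 8.83e-07), and the LSK Dox arrays overlapped their controls. The compound responses differed by -0.67 (limma adjusted p = 0.0165), a call lost without LSK compound replicate 2 (adjusted p = 0.114).

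Ccr1, a receptor for inflammatory CC chemokines, moved in opposite directions with Dox. It read 5.44, 5.23 and 5.39 on AML control, 2.65, 2.55 and 2.24 on AML Dox and 7.87, 8.03 and 7.93 on AML compound arrays. It read 4.13, 3.46 and 4.25 on LSK control, 5.79, 5.99 and 5.56 on LSK Dox and 7.65 and 7.66 on LSK compound arrays. AML Dox arrays were the lowest of all and both compound groups the highest. With Dox Ccr1 fell by 2.87 in AML, to near the array median (limma adjusted p = 1.22e-10) and rose by 1.83 in LSK cells (3.56-fold, limma adjusted p = 4.35e-07), and the responses differed by -4.71 (limma adjusted p = 9.64e-11). With compounds it rose by 2.59 (limma adjusted p = 3.32e-09) and 3.71 (limma adjusted p = 5.86e-11). With LSK compound replicate 1, at 2.52, included, the AML Dox call held (limma adjusted p = 0.0295) and the AML compound, LSK Dox and LSK compound calls were lost (limma adjusted p = 0.129, 0.577 and 0.141).

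Ccr2, the receptor for the monocyte chemoattractant CCL2, split by cell type under compounds instead. AML arrays read 4.99, 5.18 and 5.14 as control, 5.67, 5.76 and 5.69 with Dox and 5.94, 5.86 and 5.80 with compounds. LSK arrays read 6.09, 6.20 and 6.20 as control, 6.71, 6.62 and 6.62 with Dox and 4.40 and 4.09 with compounds. Only the LSK compound arrays lay below their controls. Ccr2 rose with Dox by 0.60 in AML (limma adjusted p = 2.14e-05) and 0.49 in LSK cells (limma adjusted p = 0.00104). With compounds it rose by 0.76 in AML (limma adjusted p = 5.68e-06) and fell by 1.92 in LSK cells (3.79-fold, limma adjusted p = 1.16e-10), and these responses differed by 2.68 (limma adjusted p = 2.93e-10). Cx3cr1, the fractalkine receptor of patrolling monocytes, fell by 0.85 in LSK cells with Dox (limma adjusted p = 0.00354), from 4.50, 5.13 and 4.88 to 4.19, 3.66 and 4.09, its only call of a treatment against control. Its LSK compound difference of -0.54 missed the threshold (limma adjusted p = 0.0553) and was called in 9 of the alternative fits.

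**Figure D2:**
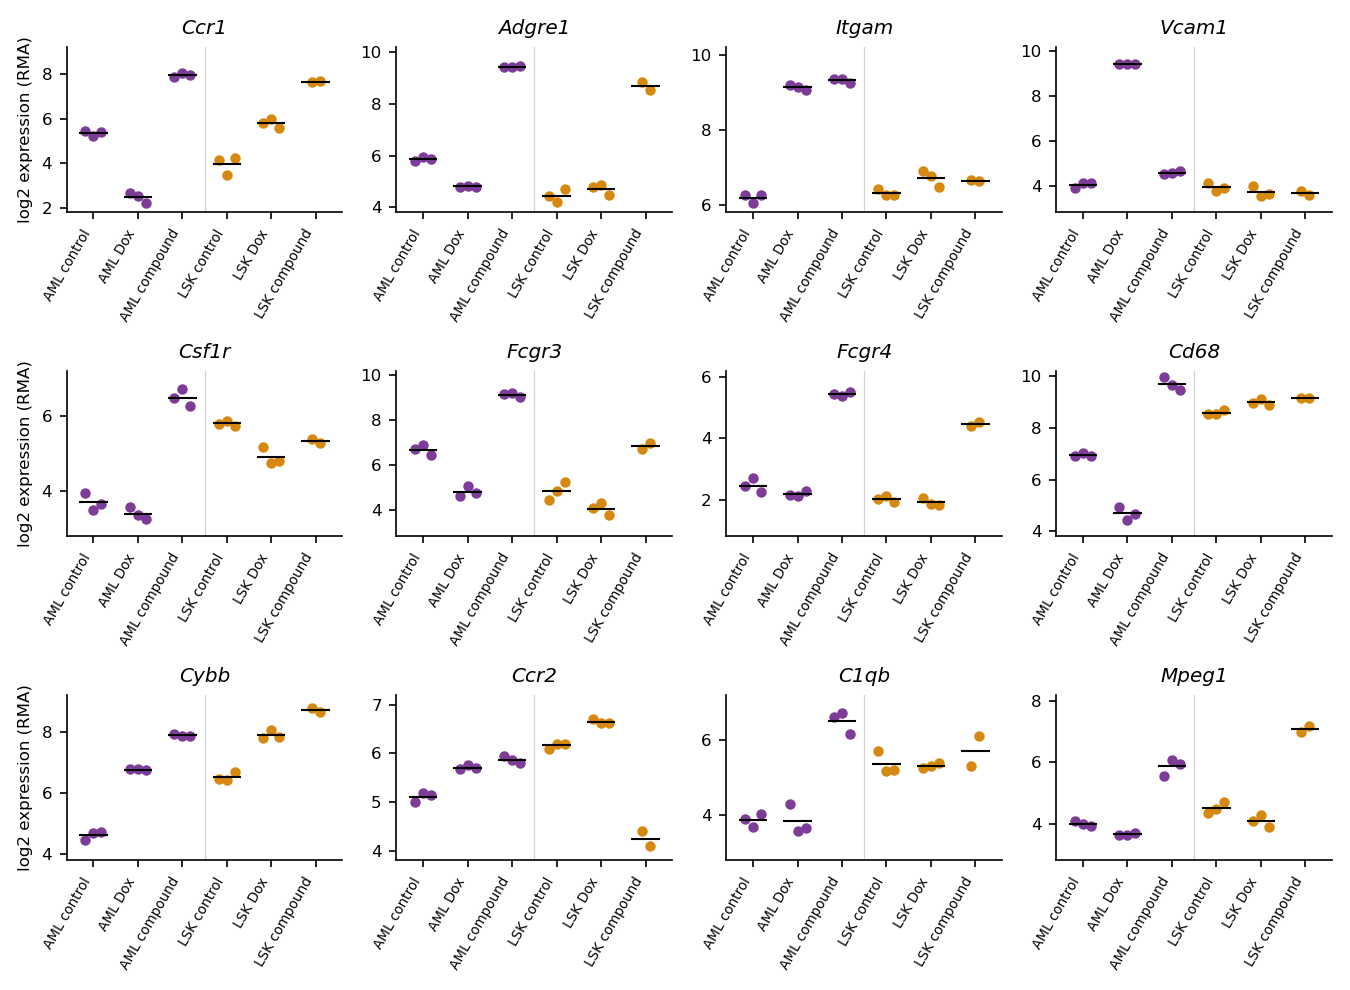
Each point is 1 array, each line the mean of its group, and the y axis is log2 expression after RMA for 12 of the 37 genes; LSK compound replicate 1 is not drawn. Ccr1 falls with Dox in AML and rises in LSK cells. Cd68 falls with Dox in AML, and its small LSK rise lost its call in 16 of the alternative fits. Vcam1 stands apart in AML Dox at 9.43 to 9.45, and in the Ccr2 panel the LSK compound arrays lie lowest, at 4.09 and 4.40.

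The 4 receptors for IgG rose with compounds in both cell types, and Dox lowered Fcgr1, Fcgr2b and Fcgr3 in AML cells. Fcgr2b, Fcgr4 and Fcgr3 are neighbours on chromosome 1 with no other protein-coding gene between them. Their start regions are shown because these neighbours rose together; each runs 5′ to 3′ along the gene from 250 bases before to 50 after the start, in RefSeq's GRCm38.p6. Capitals mark matches to searched motifs: in Fcgr4 the reverse strand of GAGGAAGT (PU.1) begins at -24, and in Fcgr3 TGCTGAC (a MAF motif) begins at -43 and a match to TTNNGCAA (C/EBP) at -28, while Fcgr2b held none. The windows are chr1:171018676-171018975 on the plus strand for Fcgr4, and chr1:171059354-171059653 and chr1:170976022-170976321 on the minus strand for Fcgr3 and Fcgr2b.
Fcgr4: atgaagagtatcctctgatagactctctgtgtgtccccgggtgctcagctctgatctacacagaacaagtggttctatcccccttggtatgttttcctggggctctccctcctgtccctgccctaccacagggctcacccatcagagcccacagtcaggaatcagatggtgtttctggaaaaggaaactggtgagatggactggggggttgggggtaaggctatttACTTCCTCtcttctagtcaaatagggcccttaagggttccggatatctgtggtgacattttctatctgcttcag
Fcgr3: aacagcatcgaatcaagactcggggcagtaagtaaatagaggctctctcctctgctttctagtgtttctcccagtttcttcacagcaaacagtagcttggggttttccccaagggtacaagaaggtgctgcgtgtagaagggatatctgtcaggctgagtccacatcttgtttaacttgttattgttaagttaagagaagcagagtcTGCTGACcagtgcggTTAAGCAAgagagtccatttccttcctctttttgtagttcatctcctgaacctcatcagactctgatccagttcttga
Fcgr2b: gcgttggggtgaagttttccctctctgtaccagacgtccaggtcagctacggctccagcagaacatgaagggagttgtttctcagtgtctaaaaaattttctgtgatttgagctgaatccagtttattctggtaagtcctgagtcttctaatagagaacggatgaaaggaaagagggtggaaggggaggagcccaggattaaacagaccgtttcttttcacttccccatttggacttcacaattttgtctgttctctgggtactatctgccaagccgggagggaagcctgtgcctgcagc

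Fcgr3, an activating receptor of low affinity, read 6.71, 6.88 and 6.43 on AML control, 4.59, 5.04 and 4.75 on AML Dox and 9.15, 9.21 and 9.02 on AML compound arrays. It read 4.45, 4.81 and 5.22 on LSK control, 4.07, 4.31 and 3.75 on LSK Dox and 6.70 and 6.97 on LSK compound arrays. In both cell types the order was Dox, control, compound with no overlap. Fcgr3 fell with Dox by 1.89 in AML (limma adjusted p = 1.05e-07) and 0.78 in LSK cells (limma adjusted p = 0.00605), and rose with compounds by 2.45 (limma adjusted p = 2.18e-08) and 2.01 (limma adjusted p = 5.45e-07). The compound responses differed by 0.44, with a 95% interval of -0.14 to 1.03. Fcgr3 and Fcgr2b are alike enough in sequence that probes could share signal, and probe sequences were not used here.

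Fcgr4, a further activating receptor of monocytes and neutrophils, was below the array medians of 2.65 to 2.75 on nearly all control arrays. It read 2.45, 2.69 and 2.24 on AML control and 5.45, 5.39 and 5.50 on AML compound arrays, and 2.02, 2.12 and 1.93 on LSK control and 4.42 and 4.54 on LSK compound arrays. The compound arrays stood clear of the controls, with rises of 2.99 (limma adjusted p = 1.61e-12) and 2.46 (limma adjusted p = 4.27e-11). Of the controls, 0 of 3 LSK arrays and 2 of 3 AML arrays were above the filter level. With low values set to that level the rises were at least 7.74-fold in AML and 4.38-fold in LSK cells, and these are the lower bounds. The AML Dox difference of -0.27 (limma adjusted p = 0.0468) had overlapping arrays, none of the Dox arrays was above the filter level, and the call was lost with low values set to that level (limma adjusted p = 0.321), so a fall is not shown.

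Fcgr2b, the inhibitory receptor of the family, read 8.67, 8.80 and 8.71 on AML control, 7.23, 6.92 and 7.09 on AML Dox and 9.55, 9.54 and 9.44 on AML compound arrays. It fell by 1.64 with Dox (limma adjusted p = 1.06e-10) and rose by 0.78 with compounds (limma adjusted p = 6.31e-06). In LSK cells it rose by 1.18 with compounds (limma adjusted p = 1.16e-07) and was not called with Dox (0.21). Fcgr1, the receptor of high affinity, fell with Dox by 0.63 in AML and 0.38 in LSK cells (limma adjusted p = 5.67e-05 and 0.017). With compounds Fcgr1 rose by 1.51 and 1.02 (limma adjusted p = 7.59e-09 and 2.06e-06).

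Fcer1g, the common gamma chain of Fc receptors, was bright in every group. It read 10.19, 10.21 and 10.21 on AML control and 10.96, 10.91 and 10.86 on AML compound arrays, and 9.99, 10.03 and 9.97 on LSK control and 10.59 and 10.54 on LSK compound arrays. It rose with compounds by 0.70 (limma adjusted p = 2.66e-06) and 0.57 (limma adjusted p = 6.18e-05), with no overlap. Tyrobp, the adaptor of TREM2, rose by 1.41 in AML, from 7.47, 7.76 and 7.42 to 9.04, 8.93 and 8.90 (limma adjusted p = 1.83e-07), and by 0.60 in LSK cells (limma adjusted p = 0.00273). Trem2, a lipid-sensing receptor that signals through Tyrobp, fell by 0.60 with Dox in AML (limma adjusted p = 0.0106) and by 0.57 with compounds in LSK cells (limma adjusted p = 0.0398), from 4.09, 3.94 and 4.08 to 3.43 and 3.50. Its AML compound difference of 0.26 was not called.

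Among promoters, 28 members had 33 windows in the RefSeq table, some genes having several starts. Searched on both strands, GAGGAAGT lay in 3 of the 33 (9.09%; C1qc, F13a1 and Fcgr4) and in 3.2% of all 32851 windows. TTNNGCAA lay in 5 (15.2%; Cd68, Fcgr3, Plac8 and Trem2) and in 10.8% of all, and TTGCGCAA, one of its forms, in 0 and in 0.183%. TGANTCA (AP-1) lay in 3 (9.09%, in Cd68, Cybb and Trem2) and in 7.81%, and TGCTGAC in 2, both of Fcgr3, and in 4.67%. The 2 windows of Fcgr3 overlap and hold the same TGCTGAC and TTNNGCAA sites, so each site was counted in both. A match describes letters in a window, not a bound site.

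Cd68, a lysosomal glycoprotein of macrophages, and Cybb, the catalytic subunit of the oxidase, moved in opposite directions with Dox in AML cells, and their start regions both hold the AP-1 motif. TGANTCA begins at -149 and -24 in Cd68 and at -139 in Cybb, and the other capitals of Cd68, at -43, match TTNNGCAA on the reverse strand. The windows, built as above, are chr11:69666121-69666420 and chrX:9469275-9469574, both on the minus strand of GRCm38.p6.
Cd68: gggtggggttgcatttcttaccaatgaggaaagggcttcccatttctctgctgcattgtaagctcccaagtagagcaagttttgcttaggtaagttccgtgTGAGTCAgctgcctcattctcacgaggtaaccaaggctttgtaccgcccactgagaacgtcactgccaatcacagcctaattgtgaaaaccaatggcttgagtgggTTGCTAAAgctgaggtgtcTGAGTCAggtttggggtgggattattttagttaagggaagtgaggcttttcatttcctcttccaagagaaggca
Cybb: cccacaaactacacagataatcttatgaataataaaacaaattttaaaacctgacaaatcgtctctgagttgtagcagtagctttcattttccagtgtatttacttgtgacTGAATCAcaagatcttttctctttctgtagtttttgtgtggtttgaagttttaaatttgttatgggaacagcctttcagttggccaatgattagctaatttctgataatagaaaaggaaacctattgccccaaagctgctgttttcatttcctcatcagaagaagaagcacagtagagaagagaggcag

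Cd68 read 6.92, 7.02 and 6.93 on AML control, 4.95, 4.45 and 4.67 on AML Dox and 9.96, 9.64 and 9.45 on AML compound arrays. On LSK arrays it was high throughout, at 8.52, 8.55 and 8.70 as control, 8.98, 9.10 and 8.89 with Dox and 9.16 and 9.17 with compounds. In AML cells it fell by 2.26 with Dox (4.80-fold, limma adjusted p = 1.07e-10) and rose by 2.73 with compounds (6.63-fold, limma adjusted p = 6.93e-11), with no overlap among the 3 groups. In LSK cells it rose by 0.40 with Dox (limma adjusted p = 0.044) and 0.57 with compounds (limma adjusted p = 0.00505). The LSK Dox call was lost in 16 of the alternative fits, among them median centring and no filter on low values. The Dox responses differed by -2.66 (limma adjusted p = 3.87e-09).

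Marco and Msr1, scavenger receptors for bacteria and modified lipoproteins, rose with compounds in both cell types. Marco read 2.84, 3.03 and 3.37 on AML control and 4.42, 4.03 and 4.18 on AML compound arrays, and 3.75, 3.51 and 3.14 on LSK control and 6.28 and 6.24 on LSK compound arrays. Its rise of 2.79 in LSK cells (limma adjusted p = 1.33e-09) and that of 1.13 in AML cells (limma adjusted p = 3.37e-05) differed, by -1.66 for AML minus LSK (limma adjusted p = 7.47e-05). Msr1 went from 1.72, 1.93 and 2.08 to 4.30, 4.90 and 4.41 in AML and from 2.53, 2.75 and 2.96 to 4.03 and 3.97 in LSK cells. Those rises were 2.63 (limma adjusted p = 8.2e-10) and 1.25 (limma adjusted p = 1.5e-05), the AML controls lying below the filter level. With Dox both fell in LSK cells, Marco by 0.48 (limma adjusted p = 0.047) and Msr1 by 0.55 (limma adjusted p = 0.0168), and neither was called in AML cells. For Msr1, 0 of 3 LSK Dox arrays were above the filter level, so the size of its fall cannot be read.

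Mrc1, the mannose receptor of tissue macrophages, was dim throughout. It read 1.98, 2.07 and 2.08 on AML control and 2.51, 2.79 and 2.45 on AML compound arrays, and 2.83, 3.32 and 2.98 on LSK control and 2.03 and 2.18 on LSK compound arrays. The LSK compound fall of 0.94 (limma adjusted p = 3.06e-05) held with low values set to the filter level (limma adjusted p = 0.000589). The AML rises of 0.54 with compounds and 0.36 with Dox did not (limma adjusted p = 0.14 and 0.617). Mertk, a TAM receptor for apoptotic cells, rose by 1.58 in AML cells with compounds, from 2.82, 3.02 and 2.80 to 4.67, 4.59 and 4.11 (limma adjusted p = 1.16e-07), and its LSK compound difference was 0.08. Axl, its relative, rose by 0.61 in AML cells with Dox, from 3.24, 3.25 and 3.61 to 3.85, 4.20 and 3.87 (limma adjusted p = 0.00627). Cd163, the haptoglobin-haemoglobin receptor, ranged from 2.24 to 2.83 on the 17 arrays.

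The 3 chains of C1q, which starts the classical complement pathway, are neighbours on chromosome 4 and changed by different amounts. C1qb read 3.91, 3.68 and 4.04 on AML control and 6.61, 6.73 and 6.17 on AML compound arrays, and 5.70, 5.17 and 5.21 on LSK control and 5.32 and 6.10 on LSK compound arrays. The AML groups stood apart and the LSK groups overlapped. C1qb rose by 2.63 in AML cells with compounds (6.18-fold, limma adjusted p = 6.58e-08), and its LSK compound difference was 0.34 (limma adjusted p = 0.322). C1qc rose by 0.73 in AML cells with compounds, from a mean of 2.53 to one of 3.25 (limma adjusted p = 0.000451). C1qa, at 2.61 to 3.34 on the 17 arrays, differed by 0.13 (limma adjusted p = 0.461). With Dox none of the chains was called in either cell type, and none had an unadjusted p under 0.05. C1qa and C1qc lay near the array medians of AML cells, where a fall cannot be shown.

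The oxidase subunits diverged with Dox in AML cells. Cybb, the X-linked membrane subunit whose start region is printed above, read 4.45, 4.70 and 4.73 on AML control, 6.77, 6.77 and 6.74 on AML Dox and 7.92, 7.85 and 7.87 on AML compound arrays. It read 6.45, 6.43 and 6.67 on LSK control, 7.81, 8.06 and 7.84 on LSK Dox and 8.77 and 8.65 on LSK compound arrays. Every treated group lay above its controls. The AML rises were 2.13 with Dox (4.39-fold, limma adjusted p = 5.87e-12) and 3.25 with compounds (9.53-fold, limma adjusted p = 2.1e-13), and the LSK rises 1.38 (limma adjusted p = 1.71e-08) and 2.19 (limma adjusted p = 5.53e-11). With LSK compound replicate 1, at 3.48, included, the AML compound call held (limma adjusted p = 0.0479) and the AML Dox, LSK Dox and LSK compound calls were lost (limma adjusted p = 0.116, 0.894 and 0.717).

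Ncf1 and Ncf4, subunits that join the oxidase from the cytosol, fell where Cybb rose in AML cells with Dox. Ncf1 read 8.25, 8.41 and 8.37 on AML control and 7.30, 7.38 and 7.23 on AML Dox arrays. It read 7.80, 7.61 and 7.74 on LSK control, 8.66, 8.62 and 8.65 on LSK Dox and 9.04 and 8.95 on LSK compound arrays. With Dox it fell by 1.04 in AML (limma adjusted p = 4.9e-08) and rose by 0.93 in LSK cells (limma adjusted p = 1.76e-06), and the responses differed by -1.97 (limma adjusted p = 3.32e-09). Ncf4 fell by 1.44 in AML cells with Dox, from 7.29, 7.32 and 7.17 to 5.82, 5.89 and 5.76 (limma adjusted p = 3.39e-08). With compounds both rose in LSK cells, Ncf1 by 1.28 (limma adjusted p = 4.19e-08) and Ncf4 by 1.60 (limma adjusted p = 1.09e-07). In AML cells with compounds their differences of 0.17 and 0.35 were not called (limma adjusted p = 0.223 and 0.0505), though Ncf4 was called higher in 8 of the alternative fits, and the test between the cell types gave -1.12 and -1.26 (limma adjusted p = 2.05e-05 and 0.000142).

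Lgmn, a lysosomal asparaginyl endopeptidase, read 3.60, 3.77 and 3.65 on AML control, 3.73, 3.38 and 3.78 on AML Dox and 6.58, 6.89 and 6.38 on AML compound arrays. It read 3.77, 4.05 and 4.16 on LSK control, 5.56, 5.42 and 5.31 on LSK Dox and 6.14 and 6.38 on LSK compound arrays. With Dox the AML arrays overlapped their controls (difference -0.04, 95% interval -0.34 to 0.25), and the other 3 treated groups lay above theirs. Those rises were 2.94 in AML with compounds (7.67-fold, limma adjusted p = 7.17e-11), 1.44 in LSK with Dox (limma adjusted p = 1e-06) and 2.27 in LSK with compounds (limma adjusted p = 4.02e-09).

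Lyz2, the lysozyme of monocytes and neutrophils, read 6.61, 6.82 and 6.91 on AML control, 5.75, 6.31 and 6.48 on AML Dox and 9.23, 9.25 and 9.16 on AML compound arrays. It read 8.54, 8.48 and 8.35 on LSK control, 7.13, 7.22 and 7.37 on LSK Dox and 8.43 and 8.24 on LSK compound arrays. It fell with Dox by 0.60 in AML (limma adjusted p = 0.00214) and 1.22 in LSK cells (limma adjusted p = 1.04e-05), and rose by 2.44 in AML with compounds (limma adjusted p = 1.27e-09), while the LSK compound arrays overlapped their controls. Lyz1 is a close copy whose signal the probes could share. Mpeg1, a pore-forming protein of phagocytes, read 4.08, 3.98 and 3.93 on AML control and 5.57, 6.08 and 5.95 on AML compound arrays, and 4.36, 4.48 and 4.70 on LSK control and 6.98 and 7.19 on LSK compound arrays. Its compound rises were 1.87 (limma adjusted p = 9.91e-09) and 2.57 (limma adjusted p = 3.02e-10), both lost with LSK compound replicate 1 included (limma adjusted p = 0.208 and 0.276).

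Lst1, a leukocyte membrane adaptor, had the largest measured Dox fall of the list. Its AML Dox values lay near the array median, as did those of Ccr1, so these falls cannot be ranked. Lst1 read 5.77, 5.76 and 5.94 on AML control, 3.07, 2.77 and 2.67 on AML Dox and 5.76, 6.02 and 6.13 on AML compound arrays, so only Dox separated from control. The fall was 2.99 (7.94-fold, limma adjusted p = 1.79e-09), while its chromosomal neighbour Aif1, an actin-bundling protein of macrophages, read 2.17 to 2.73 on the 17 arrays and was not called. Emilin2, an extracellular matrix glycoprotein, went from 7.50, 7.58 and 7.35 to 5.16, 5.42 and 5.31 with Dox and to 8.90, 9.14 and 8.70 with compounds in AML cells. It fell by 2.18 (limma adjusted p = 3.13e-11) and rose by 1.44 (limma adjusted p = 4.69e-08). Plac8, a small cysteine-rich protein of myeloid cells, read 8.96 to 9.03 on AML control and 7.35, 7.28 and 7.36 on AML Dox arrays, and 8.23, 8.31 and 8.38 on LSK control and 7.61, 7.64 and 7.74 on LSK Dox arrays. It fell by 1.66 (limma adjusted p = 1.11e-11) and 0.64 (limma adjusted p = 1.86e-05).

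Cst3, the secreted protease inhibitor cystatin C, rose with Dox. It read 7.28, 7.30 and 7.25 on AML control and 8.80, 8.67 and 8.77 on AML Dox arrays, and 7.27, 7.38 and 7.41 on LSK control, 7.96, 7.91 and 8.04 on LSK Dox and 7.07 and 7.05 on LSK compound arrays. The Dox arrays lay above both controls, by 1.47 (2.77-fold, limma adjusted p = 1.06e-10) and 0.61 (limma adjusted p = 4.88e-05). The LSK compound fall of 0.30 (limma adjusted p = 0.0211) was lost on the second probe set of Cst3 (limma adjusted p = 0.488). F13a1, a coagulation factor subunit of monocytes, was called once among the treatments, rising by 0.41 in AML cells with compounds (limma adjusted p = 0.0258). Maf, the transcription factor of the list, rose with compounds by 2.30 in AML, from 2.82, 2.58 and 2.68 to 4.84, 5.85 and 4.30 (limma adjusted p = 8.99e-06), and by 1.84 in LSK cells, from a mean of 2.75 to one of 4.59 (limma adjusted p = 0.000218). Its 95% intervals were wide, 1.69 to 2.91 and 1.16 to 2.52.

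**Figure D3:**
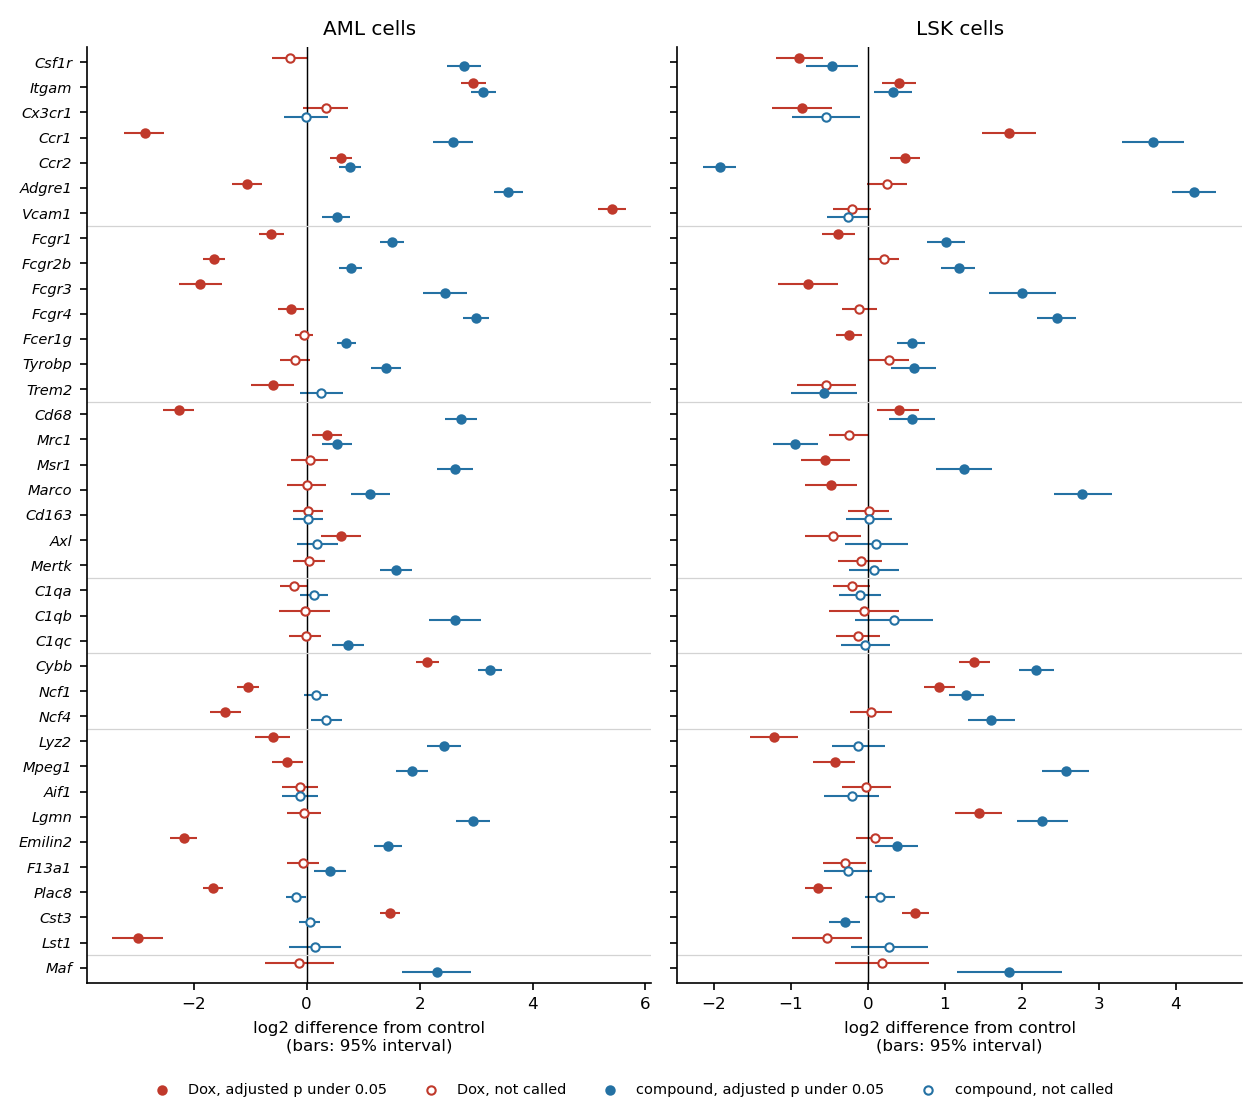
Points are log2 differences from the control arrays of the same cell type for Dox and compound, bars their 95% intervals, and filled points have an adjusted p under 0.05, with 1 row for each of the 37 genes. In the AML panel no compound difference is called below 0 and the Dox differences run from -2.99 for Lst1 to 5.41 for Vcam1, while in the LSK panel they run from -1.22 for Lyz2 to 1.83 for Ccr1.

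Before treatment the cell types already differed, with 11 genes higher and 11 lower in AML than in LSK controls, beside 14.7% and 13.6% of all genes tested (28.4% at all). Higher in AML were the receptor Fcgr3 by 1.85 (limma adjusted p = 5.18e-07), the adaptor Tyrobp by 1.69 (limma adjusted p = 1.18e-08), Lst1 by 1.57, Adgre1 by 1.41, Ccr1 by 1.41, Ncf4 by 1.37 and Fcgr2b by 1.05, with Plac8, Ncf1, Emilin2 and Fcgr4 between 0.44 and 0.69. Lower in AML were Csf1r by -2.10 (limma adjusted p = 4.39e-09), Cybb (-1.89), Lyz2 (-1.68), Cd68 (-1.64), C1qb (-1.49), Axl (-1.36), Cx3cr1 (-1.21) and Ccr2 (-1.06), besides Mrc1, Msr1 (-0.84) and Mpeg1 (-0.52). All 22 calls held with each of the 17 arrays left out, Fcgr4 was lost with low values set to the filter level (limma adjusted p = 0.174), and 9 held with LSK compound replicate 1 included, beside 8.28% of all genes called. These differences share the control arrays with the treatment differences above.

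Set directly against each other in AML cells, Dox left 28 of the 37 genes lower and 2 higher than the compounds did, beside 23.8% and 22.4% of all genes (46.2% at all). Lower with Dox by the most were Ccr1 (-5.47, limma adjusted p = 4.73e-14), Cd68 (-4.99), Adgre1 (-4.63) and Fcgr3 (-4.34). Higher with Dox were Vcam1 by 4.88 (limma adjusted p = 3e-15) and Cst3 by 1.42 (limma adjusted p = 1.98e-10). Of the 30 calls 29 held with each array left out, and C1qa was lost without AML compound replicate 3 (0.0905), while 22 held with LSK compound replicate 1 included, beside 22.6% of all genes called. In LSK cells 19 were lower and 3 higher with Dox than with compounds, beside 14.1% and 17.3% of all genes (31.4% at all). Adgre1 (-3.99), Marco (-3.27), Mpeg1 (-3.01) and Fcgr3 (-2.79) were lower by the most, and Ccr2 (2.41, limma adjusted p = 5.75e-12), Cst3 (0.91) and Mrc1 (0.70) were higher. Ncf1 and Lst1 (both 0.125) lost the call without LSK compound replicate 2, and Axl (0.256) without replicate 3, and 9 of the 22 held with replicate 1 included, beside 14.8% of all genes called.

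The response itself was tested between the cell types. For Dox, 10 genes had a higher and 12 a lower difference in AML than in LSK cells, beside 18% and 20.7% of all genes (38.8% at all). For compounds 19 were higher and 6 lower, beside 8.37% and 8.24% (16.6% at all). With LSK compound replicate 1 included 6 of the Dox and 8 of the compound calls held, beside 12.9% and 3.05% of all genes called. With Dox, Itgam, Ccr2, Cybb and Cst3 rose in both cell types, beside 4.99% of all genes, and Fcgr1, Fcgr3, Lyz2, Mpeg1 and Plac8 fell in both, beside 6.36%. Ccr1, Cd68 and Ncf1 fell in AML and rose in LSK cells with Dox, beside 1.03% of all genes, and 0 did the opposite, beside 1.08%. Of these, Cd68 lost its LSK call in 16 of the alternative fits. Among the genes called in the same direction in both, Itgam, Fcgr1 and Mpeg1 lost the LSK Dox call for some array left out. Mpeg1 lost the AML Dox call in this way as well. With compounds 17 of the 37 rose in both, beside 6.53% of all genes, and Csf1r, Ccr2 and Mrc1 rose in AML and fell in LSK cells, beside 0.828%. The AML rise of Mrc1 was not called with low values set to the filter level. Csf1r lost its LSK compound call for some array left out, as did Itgam, Tyrobp and Emilin2 of the 17. The Dox responses of Mrc1 and Msr1 no longer differed past the threshold with low values set to the filter level (limma adjusted p = 0.131 and 0.0622).

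**Figure D4:**
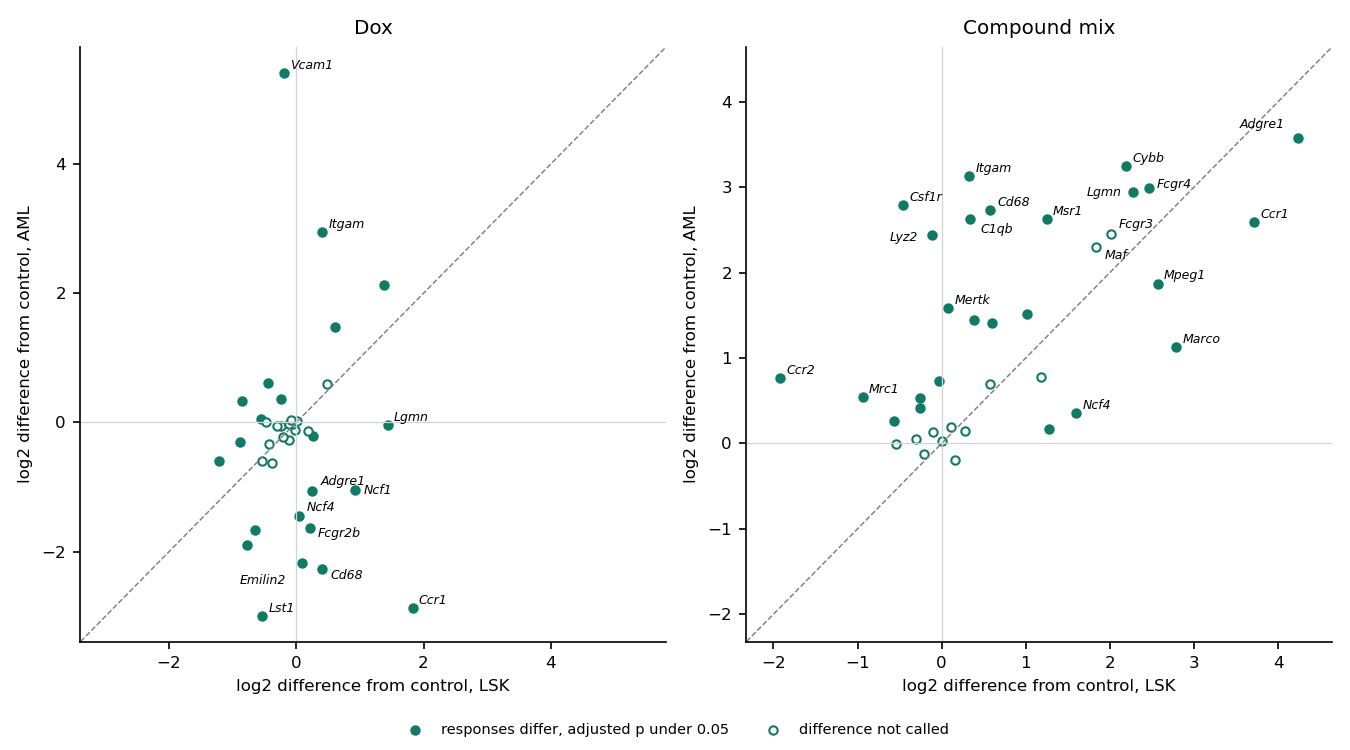
Each point is 1 of the 37 genes, with its log2 difference from control in LSK cells on the x axis and in AML cells on the y axis, for Dox on the left and compounds on the right; filled points have responses that differ at an adjusted p under 0.05, and the dashed line marks equal responses. For Dox, Vcam1 (5.61) and Itgam (2.54) lie above the line and Ccr1 (-4.71) below it, and for compounds Csf1r (3.25) lies above and Marco (-1.66) below.

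Partner genes of these pathways were described from lists of their own. Of all genes tested, 22.3% were called higher and 24.7% lower in AML with Dox, and 12.3% and 18.5% with compounds. In LSK cells these shares were 8.87% and 9.43% with Dox and 13.9% and 19.3% with compounds. All list counts from here on stand beside these shares, and whether a list departs from them was not tested. Of 12 genes of M-CSF and Fc receptor signalling tested, 2 rose and 4 fell in AML cells with compounds. Csf1, the gene of M-CSF, rose by 3.07, from 3.01 to 3.42 to 6.22 to 6.32 (limma adjusted p = 1.84e-11), and Itgb2, the partner chain of Itgam, by 1.49. In LSK cells with compounds 4 rose and 4 fell, with Csf1 up by 2.35 (limma adjusted p = 1.04e-09) and Itgb2 by 1.82. With Dox 2 rose and 8 fell in AML cells, the adaptor Lat2 by 1.91 and the phospholipase Plcg2 by 1.09 among them, and in LSK cells Itgb2 alone was called, rising by 1.99. Of 3 oxidase partners, the GTPase Rac2 fell by 0.90 with Dox in AML cells, and Cyba, the membrane partner of Cybb, rose by 1.13 with compounds in LSK cells. The complement receptor C3ar1 rose with compounds by 3.81 in AML (limma adjusted p = 1.45e-11) and 1.97 in LSK cells, and properdin, Cfp, rose by 2.94 with Dox in AML cells. Of the TAM ligands, Pros1 rose by 2.05 with Dox in AML and Gas6 by 1.99 with Dox in LSK cells.

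Of 11 myeloid transcription factors tested, 3 rose and 6 fell with Dox in AML cells. After Klf4, the calls of smallest p were Cebpb (fell by 1.94), Id2 (rose by 2.05) and Cebpa (fell by 1.92), and Spi1, the gene of PU.1, fell by 1.05 (limma adjusted p = 1.68e-09). With compounds 5 rose and 2 fell in each cell type. Irf8, a factor of the monocyte lineage, rose by 1.98 in AML cells (limma adjusted p = 3.24e-09), and the repressor Gfi1 rose by 1.07 in AML and 2.55 in LSK cells. Cebpa fell in all 4 treated groups, by 1.92 and 1.14 in AML and 0.79 and 1.55 in LSK cells with Dox and compounds.

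Of 28 other monocyte and macrophage genes tested, 16 rose and 1 fell in AML cells with compounds (median 1.01), and 15 rose and 4 fell in LSK cells (median 0.42). Gpnmb, a glycoprotein of lipid-laden macrophages, rose by 5.72 in AML (limma adjusted p = 9.39e-15). The scavenger receptor Cd36 rose by 2.65 in AML and 6.07 in LSK cells with compounds, and Ms4a7 by 4.09 in LSK cells. With Dox 8 rose and 4 fell in AML and 7 rose and 3 fell in LSK cells. The inhibitory lectin Cd33 fell by 4.03 and the protease Ctss rose by 3.05 in AML cells, and Cd36 rose by 6.20 and Gpnmb fell by 2.35 in LSK cells.

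Markers of other blood cells moved with the same treatments, and their part in the results was not tested. Of 12 neutrophil genes tested, 1 rose and 9 fell in LSK with compounds, 0 rose and 8 fell in LSK with Dox, 1 rose and 4 fell in AML with Dox, and 2 rose and 4 fell in AML with compounds. The log2 of their summed signal was 11.54 to 11.72 on LSK control, 10.28 to 10.30 on LSK Dox and 9.43 to 9.46 on LSK compound arrays, and 12.32 to 12.33, 10.42 to 10.45 and 11.28 to 11.52 on the AML ones. The granule genes Elane and Mpo fell by 4.33 and 4.93 in LSK cells with compounds, while the collagenase Mmp8 rose by 5.64 in AML cells. Of 5 megakaryocyte genes 2 rose and 0 fell in AML with compounds, 2 rose and 3 fell in LSK with compounds, 2 rose and 2 fell in LSK with Dox, and 0 were called in AML with Dox. The platelet chemokine genes Ppbp and Pf4 rose with compounds, by 7.73 and 1.63 in AML and 4.19 and 3.05 in LSK cells, while Itga2b and Gp9 fell by 0.63 and 1.36 in LSK cells. The summed signal of the list, 5.33 to 5.44 on AML control and 10.46 to 10.59 on AML compound arrays, was nearly all Ppbp in the latter (mean 10.46). Of 9 dendritic cell and antigen presentation genes 4 rose and 1 fell in LSK with compounds, H2-Ab1 by 2.20 among them, 3 rose and 0 fell in AML with compounds, and with Dox 1 rose and 5 fell in AML and 1 rose and 3 fell in LSK cells. Of 9 genes that mark stem and progenitor cells, 4 fell and 3 rose in AML cells with Dox, Cd34 falling by 5.23 and Kit by 2.78, 4 rose and 1 fell in AML with compounds, and in LSK cells 5 rose and 2 fell with Dox and 3 rose and 3 fell with compounds. Of 6 mast cell and basophil genes 0 rose and 4 fell in AML with Dox, 2 rose and 1 fell in AML with compounds, 0 rose and 3 fell in LSK with Dox, and 1 rose and 2 fell in LSK with compounds. The protease genes Mcpt8 and Cpa3 fell by 2.68 and 2.71 in LSK cells with Dox, and with compounds Mcpt8 fell by 3.18 and Cpa3 rose by 1.63. Lists of B cell, T and NK cell and erythroid genes gave at most 1 call in a direction in any of the 4 comparisons, and eosinophil and stromal lists at most 2. For the 37 genes the summed signal was 11.91 to 11.99 on AML control, 11.95 to 12.00 on AML Dox and 13.10 to 13.24 on AML compound arrays, and 11.78 to 11.81, 11.82 to 11.90 and 12.57 to 12.62 on the LSK ones.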

How the data were processed

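RNA from 18 samples was hybridised to 1-colour Affymetrix whole-transcript arrays after biotin labelling. Per the submitters' processing notes the authors used RMA, which corrects background, equalises arrays and summarises probes, and the deposited values are log2 expression per probe set, used unchanged. The RMA version and genome build were not given in the sources used here. Groups came from the sample titles, and LSK compound replicate 1 was left out. Of 41345 probe sets, 23521 named 1 gene, 1814 several and 16010 none; the highest-mean probe set per gene was kept if above the array's 40th percentile on at least 2 arrays. Limma 3.58.1 in R 4.3.3 fitted 1 mean per group on 17 arrays (11 residual and 5.34 prior degrees of freedom), with 9 contrasts and Benjamini-Hochberg adjustment over 16912 genes at 0.05. The median SE was 0.125 for AML treatment effects and 0.139 for LSK compound; arrays have no read depth, and their number limits the precision. The fit was tested on simulated data.

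Every member is counted in each comparison, and values per array are given for members past the threshold whose groups did not overlap, at most 6 each way, and for members of the same receptor family or complex. From other lists, up to 4 genes of smallest p are named; any other was picked with its values in view. The members and lists were chosen with earlier results of these data known. The alternatives were all 18 arrays, array quality weights, a replicate block, each array left out, the compared groups alone, quantile normalization, median centring, 3 other treatments of low values and the second probe set.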

Additional observations from a re-analysis of the deposited data

Results flagged for a closer look

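The following 47 results have a response to treatment that differed between AML and LSK cells by the interaction test of limma (adjusted p under 0.05); each value is the AML log2 difference from control minus the LSK one. For Dox the difference was positive for Vcam1 (5.61), Itgam (2.54), Cx3cr1 (1.19), Axl (1.06), Cst3 (0.85), Cybb (0.75), Lyz2 (0.62), Mrc1 (0.60), Msr1 (0.60) and Csf1r (0.59). It was negative for Ccr1 (-4.71), Cd68 (-2.66), Lst1 (-2.46), Emilin2 (-2.27), Ncf1 (-1.97), Fcgr2b (-1.85), Ncf4 (-1.49), Lgmn (-1.48), Adgre1 (-1.32), Fcgr3 (-1.10), Plac8 (-1.02) and Tyrobp (-0.48). A positive value does not by itself mean a rise in AML cells: for Csf1r, Cx3cr1, Lyz2 and Msr1 the largest part was the LSK fall with Dox. Of these 22 calls, 18 held with each array left out; Csf1r (adjusted p = 0.0843 without AML control replicate 2), Msr1 (0.0975 without LSK control replicate 3), Lyz2 (0.0736 without AML Dox replicate 3) and Tyrobp (0.12 without LSK control replicate 2) were lost.

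For compounds the difference was positive for Csf1r (3.25), Itgam (2.80), Ccr2 (2.68), Lyz2 (2.56), C1qb (2.28), Cd68 (2.16), Mertk (1.50), Mrc1 (1.48), Msr1 (1.37), Cybb (1.06), Emilin2 (1.06), Trem2 (0.83), Tyrobp (0.81), Vcam1 (0.79), C1qc (0.76), Lgmn (0.67), F13a1 (0.67), Fcgr4 (0.53) and Fcgr1 (0.49). It was negative for Marco (-1.66), Ncf4 (-1.26), Ncf1 (-1.12), Ccr1 (-1.12), Mpeg1 (-0.70) and Adgre1 (-0.67). Of these 25 calls, 17 held with each array left out, and Trem2 was lost in 14 of the 17 fits. The highest adjusted p came as follows. Without LSK compound replicate 2 the calls of Trem2 (0.126), Fcgr4 (0.123), Adgre1 (0.114), Lgmn (0.162) and F13a1 (0.105) were lost, and without replicate 3 those of Fcgr1 (0.0977), Mpeg1 (0.113) and C1qc (0.0991). The sex-linked transcripts of the LSK compound arrays also differed from those of their controls, as given with the arrays. At low values, Y-linked transcripts read higher on AML compound than on AML control arrays as well. The part of these transcripts in the differences was not tested.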

How the results depend on the processing

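With all 18 arrays the members called fell from 22 to 9 for AML Dox, 26 to 15 for AML compound, 18 to 1 for LSK Dox, 24 to 11 for LSK compound, 22 to 9 for AML against LSK control, 22 to 9 for LSK Dox against compound, 22 to 6 for the Dox response and 25 to 8 for the compound response; AML Dox against AML compound had 22 calls against 30. Calls over all genes fell too, to 24.6, 6.13, 3.47, 17.1, 8.28, 14.8, 12.9 and 3.05% in that order and to 22.6% for AML Dox against compound. The cause was not tested. With that array called differences also changed sign: Cd68 (-1.09), Fcer1g (-1.09), Itgam (-0.82), Tyrobp (-0.14), Emilin2 (-0.03) and Fcgr2b (-0.01) for LSK compound against control, Cybb (0.94), Ncf1 (0.91), Fcer1g (0.85), Plac8 (0.82), Lyz2 (0.35) and Fcgr2b (0.22) for LSK Dox against compound, and Adgre1 (0.79), Mpeg1 (0.71), Ccr1 (0.60) and Ncf1 (0.14) for the compound response. Under the other 9 settings no called member changed direction, 2854 of 2952 values kept their side of the threshold, 53 lost and 45 gained a call. Only Maf and Cst3 have a second probe set. Under that setting the other members were read on the same probe set as in the main fit, so their agreement there tests little.

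Leaving out 1 of the 17 arrays gave 19 to 22 calls for AML Dox, 25 to 27 for AML compound, 13 to 19 for LSK Dox, 19 to 25 for LSK compound, 22 to 23 for AML against LSK control, 29 to 31 for AML Dox against compound, 21 to 23 for LSK Dox against compound, 19 to 22 for the Dox and 19 to 25 for the compound response. Over all genes these fits called 7491 to 8127 for AML Dox, 4515 to 5209 for AML compound and 2407 to 3310 for LSK Dox. They called 4137 to 5009 for AML against LSK control and 7362 to 7842 for AML Dox against compound. For the Dox response they called 6193 to 6767. For comparisons with LSK compound, leaving out 1 of its arrays leaves 1 in the group, so no range over all genes is given. Same-numbered samples did not deviate together (median r 0, -0.11 to 0.10 over 40 pairs, 5 of 17 arrays closest to their own number). This check pooled pairs within and across cell types and cannot exclude a pairing. With the replicate number as a block the counts were 20, 26, 16, 24, 22, 30, 23, 21 and 21 in the order AML Dox, AML compound, LSK Dox, LSK compound, AML against LSK control, AML Dox against compound, LSK Dox against compound, Dox response and compound response. Of all 16912 genes that fit called 7910, 5094, 2923, 5430, 4651, 7738, 5122, 6488 and 2644 in the same order.

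Fcgr4, Mrc1, Msr1, Aif1, Maf, C1qa, C1qc, Cd163, F13a1 and, in AML Dox, Ccr1 and Lst1 lay near or below the array median in at least 1 group. Arrays cannot show a fall below that level.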
